A study of Mus musculus with 2 samples.

Results

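The pericytes described here are 152 barcodes, 68 in replicate 1 and 84 in replicate 2, out of 20585 deposited barcodes. They were chosen by measured values of the same barcodes. A barcode was kept with at least 500 genes and under 20% of its unique molecular identifiers (UMIs, each standing for 1 captured RNA molecule) from mitochondrial genes, which left 19619. It counted as non-neuronal with under 25 UMIs per 10000 of its total from the neuronal genes Uchl1, Tubb3, Snap25 and Stmn2, which left 8950, 4440 in replicate 1 and 4510 in replicate 2. A pericyte then had fewer than 40 per 10000 of Fabp7, a satellite glia gene, fewer than 10 per 10000 of the endothelial genes Cldn5 and Flt1, at least 3 UMIs and at least 20 per 10000 of Rgs5, Kcnj8 and Abcc9 together, and fewer than 50 per 10000 of Acta2. Pericytes were thus 1.53% of the non-neuronal barcodes of replicate 1 (exact binomial 95% interval 1.19% to 1.94%) and 1.86% of those of replicate 2 (1.49% to 2.30%), intervals that cover counting error only.

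Pericytes are the contractile support cells that sit inside the basement membrane of capillaries and small venules, wrapped around the endothelial tube. In single-cell data of mouse tissue they are recognised by Rgs5, a regulator of G protein signalling, and by Kcnj8 and Abcc9, the pore and the sulfonylurea receptor subunit of a vascular ATP-sensitive potassium channel. Vascular smooth muscle cells cover arterioles and larger vessels and carry the full contractile apparatus, with Acta2, the smooth muscle actin, as the usual marker. Sensory ganglia have a dense capillary bed, and pericytes of nervous tissue are known for holding capillaries stable through PDGF receptor beta and Notch3 and for taking part in setting capillary tone.

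The study profiled the L4-5 dorsal root ganglia, the clusters of sensory neuron bodies beside the lumbar spinal cord, of wild-type mice 8 weeks old. Both libraries belong to its acetone-ether-water (AEW) group, in which skin is treated with the solvents and then water as a model of dry-skin itch. No untreated library was analysed here, so nothing below is a response to the treatment. The labels give no strain or sex, do not say how many animals went into a library, and do not say that both libraries came from separate animals. Each standard error and p-value below is therefore set against how class differences vary between 2 libraries, which may be technical. The library term takes out a shift that all classes have in common, and the remaining spread is shared over the 5 classes. They also name the cells as neurons, whereas the barcodes described here lie outside the neuronal range by the rule itself.

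For reference, 225 barcodes with at least 50 per 10000 and at least 5 UMIs of Acta2 are called smooth muscle (123 and 102 in replicates 1 and 2), 881 barcodes marked by Cldn5 and Flt1 are called endothelial (322 and 559), 573 marked by Dcn are called fibroblasts (227 and 346), and the remaining 7090 other non-neuronal barcodes (3682 and 3408) hold mainly glia and blood-derived cells that were not divided further. A further 29 non-neuronal barcodes (18 and 11) met the marking limit but were past the Fabp7 or the endothelial limit, and were kept out of every class. The median pericyte barcode held 3767 UMIs in replicate 1 and 3793.5 in replicate 2, fewer than the smooth muscle medians of 5557 and 5032. Summed over the class, pericytes gave 291395 and 369311 UMIs, against library totals of 113251556 and 102347251. The libraries had 24 barcode sequences in common, none of them a pericyte in either library. Levels below are CPM, UMIs per 1000000 of the class sum in each library, scaled by trimmed mean of M-values (TMM) factors, and value pairs give replicate 1 and replicate 2 in that order.

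**Figure D1:**
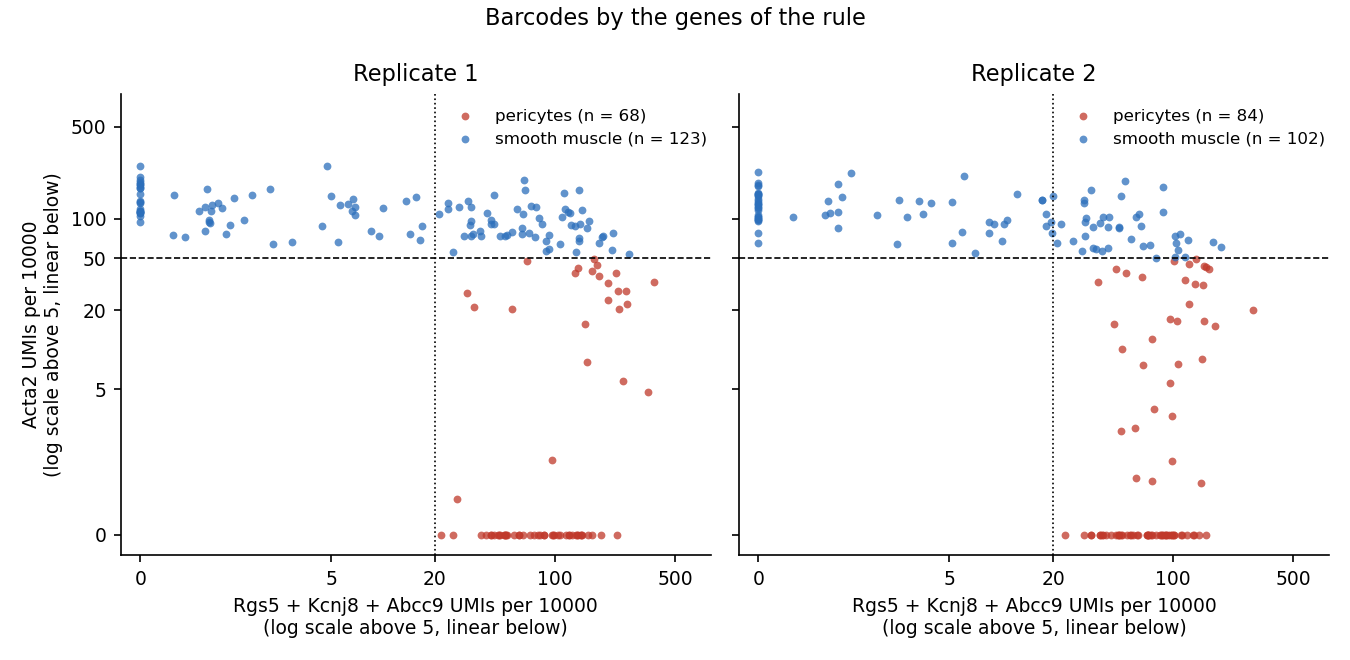
Each point is 1 barcode of a library, with the UMIs of Rgs5, Kcnj8 and Abcc9 per 10000 on the x axis and those of Acta2 per 10000 on the y axis, both linear near 0 and on a log scale above. Pericytes (red) lie right of the dotted line at 20 and below the dashed line at 50, and smooth muscle (blue) lies above 50 by construction; 44 of the 68 pericytes in replicate 1 and 50 of the 84 in replicate 2 sit at 0 UMIs of Acta2.

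Among the genes of the rule, Rgs5 carried the choice. It was counted in all 68 and all 84 pericytes and gave 94.3% and 94.2% of the UMIs of the 3 marking genes. Kcnj8 had a UMI in 38 and 46 of them and Abcc9 in 39 and 47. All 3 genes were seen together in 27 and 30 pericytes, and 18 and 21 were marked by Rgs5 without either channel gene. The summed marking genes had a median of 101 and 78.5 per 10000, with a range of 21.8 to 374 in replicate 1 and 23.5 to 289 in replicate 2. These values chose the barcodes and are given as a description.

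The class carried pericyte markers that the rule did not use. Pdgfrb, the receptor through which endothelial PDGF-B holds pericytes on the vessel, had 623 and 338 CPM in pericytes, against 408 and 199.6 CPM in smooth muscle. Notch3, the mural cell Notch receptor, had 781 and 663 CPM in pericytes, against 764 and 709.7 CPM in smooth muscle. Against 5.77 and 6.08 CPM in endothelial barcodes, 2.46 and 6.71 in fibroblasts and 4.44 and 5.07 in other non-neuronal barcodes, these levels of Notch3 set both mural classes apart from the rest and hardly from each other. The 10 pericyte markers outside the rule summed to 5547 and 4726 CPM in pericytes, against 3668 and 2798 CPM in smooth muscle, 75.5 and 78 in endothelial barcodes, 867 and 878 in fibroblasts and 391 and 351 in other non-neuronal barcodes. Barcodes that met the marking limit were kept out of the endothelial, fibroblast and other non-neuronal classes. Low levels of mural markers there, Notch3 included, are thus largely built in and are a description. The 6 smooth muscle markers other than Acta2 summed to 2179 and 1950 CPM in pericytes, against 16813 and 15104 CPM in smooth muscle, a contrast that the Acta2 limit builds in and that is given as a description.

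RNA of other cell types was present and its part in the results was not tested. The 7 endothelial markers summed to 139 and 229 CPM in pericytes, against 20.5 and 136 CPM in smooth muscle, with Pecam1 at 0 and 3 UMIs. The 6 fibroblast markers summed to 705 and 296 CPM, with Pi16 and Clec3b at 0, and 1 barcode gave 63.5% of that sum in replicate 1. Schwann cell markers summed to 2019 and 1257 CPM in pericytes, against 172 and 245 CPM in smooth muscle, and 1 barcode held 39.7% and 41.5% of them. Satellite glia markers summed to 3614 and 5640 CPM in pericytes, against 1660 and 4279 CPM in smooth muscle, and the 6 neuronal markers to 3078 and 3263 CPM, against 2811 and 3108 CPM. Macrophage RNA in replicate 1 (309 CPM) came from 1 barcode for 99%, and haemoglobin RNA (5669 and 12550 CPM) for 98.6% and 95.3%.

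Promoter sequences are shown for the contrast that the rule builds on, the contractile genes, of which many carry a CArG box, the site of serum response factor, in textbook accounts. The RefSeq windows used here hold the 250 bases upstream of a gene's start (GRCm38.p6), and the motif searched is the CArG box by its name: a CC, then 6 bases that are A or T, then a GG, which reads alike on both strands. It occurs in 482 of 32851 windows (1.47%), in 4 of the 33 windows of the contractile genes and Acta2 (Cnn2, Myl6, Myl9 and Rergl) and in 0 of the 29 windows of the pericyte markers and the genes of the rule. Shown are Myl9 (chr2:156775214-156775463, plus strand, first base of the box 161 bases upstream) and Rergl (chr6:139501910-139502159, minus strand, 49 bases). Fbxl22 (chr9:66514594-66514843, minus strand, 222 bases) is shown as a gene outside that list. All 3 were picked for display and were lower in pericytes than in smooth muscle below. Cnn2 and Myl6, not shown, were lower too, Cnn2 with one of the smaller called differences of the list. Most of the 439 genes with a box were not looked up here, and any link between a box and a level was not tested. Rgs5 (chr1:169655251-169655500, plus strand), also shown, has no box in this window. Capitals mark the box, and each run reads 5′ to 3′ along the gene's strand.
Myl9 promoter: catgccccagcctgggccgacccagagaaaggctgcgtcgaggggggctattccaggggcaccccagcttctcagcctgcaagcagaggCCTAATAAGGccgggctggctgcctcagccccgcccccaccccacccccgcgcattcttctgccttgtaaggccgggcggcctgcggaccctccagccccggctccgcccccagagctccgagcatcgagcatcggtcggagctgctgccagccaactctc
Rergl promoter: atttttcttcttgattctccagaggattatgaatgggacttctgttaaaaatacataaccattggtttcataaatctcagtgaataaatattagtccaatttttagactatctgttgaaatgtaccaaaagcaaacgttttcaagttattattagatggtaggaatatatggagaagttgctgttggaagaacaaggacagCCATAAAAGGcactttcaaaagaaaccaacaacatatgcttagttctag
Fbxl22 promoter: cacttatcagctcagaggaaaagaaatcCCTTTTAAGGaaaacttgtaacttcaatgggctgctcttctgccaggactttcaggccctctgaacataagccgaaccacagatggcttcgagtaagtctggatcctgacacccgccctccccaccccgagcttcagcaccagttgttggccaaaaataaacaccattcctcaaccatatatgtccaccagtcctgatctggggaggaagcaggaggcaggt
Rgs5 promoter: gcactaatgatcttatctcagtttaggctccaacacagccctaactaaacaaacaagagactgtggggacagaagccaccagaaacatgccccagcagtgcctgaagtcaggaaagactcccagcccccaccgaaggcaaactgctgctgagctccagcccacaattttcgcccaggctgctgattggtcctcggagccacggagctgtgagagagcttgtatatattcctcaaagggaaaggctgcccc
A match is a description of letters and not a bound site, and its absence from a window says nothing of the factor.

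Pericytes were set against smooth muscle gene by gene with edgeR's quasi-likelihood test on the class sums of both libraries, with library as a term and Benjamini-Hochberg adjustment over all genes of the fit. Of 12250 genes outside the rule, 203 were higher in pericytes (1.66% of those tested) and 362 lower (2.96%) at an adjusted p under 0.05, 565 in all. Those shares are the background for each list count against smooth muscle below. The classes were divided on genes of the same barcodes, so each call is conditional on that division, and genes that follow Acta2 or Rgs5 across cells had to differ. Without the library term 340 genes were called, 116 higher and 224 lower. With the pericytes of replicate 1 or of replicate 2 left out, the number was 255 and 211, and 47 of the 203 higher and 104 of the 362 lower genes were also called in both of those fits, in which the lone pericyte sum is assumed to vary like the other classes. Below, a library left out, or a result without a replicate, means that only its pericyte sum was dropped and its other classes stayed. Where a gene lost its call with a library left out, its adjusted p-values from those fits follow its main one, first with the pericytes of replicate 1 and then with those of replicate 2 left out.

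**Figure D2:**
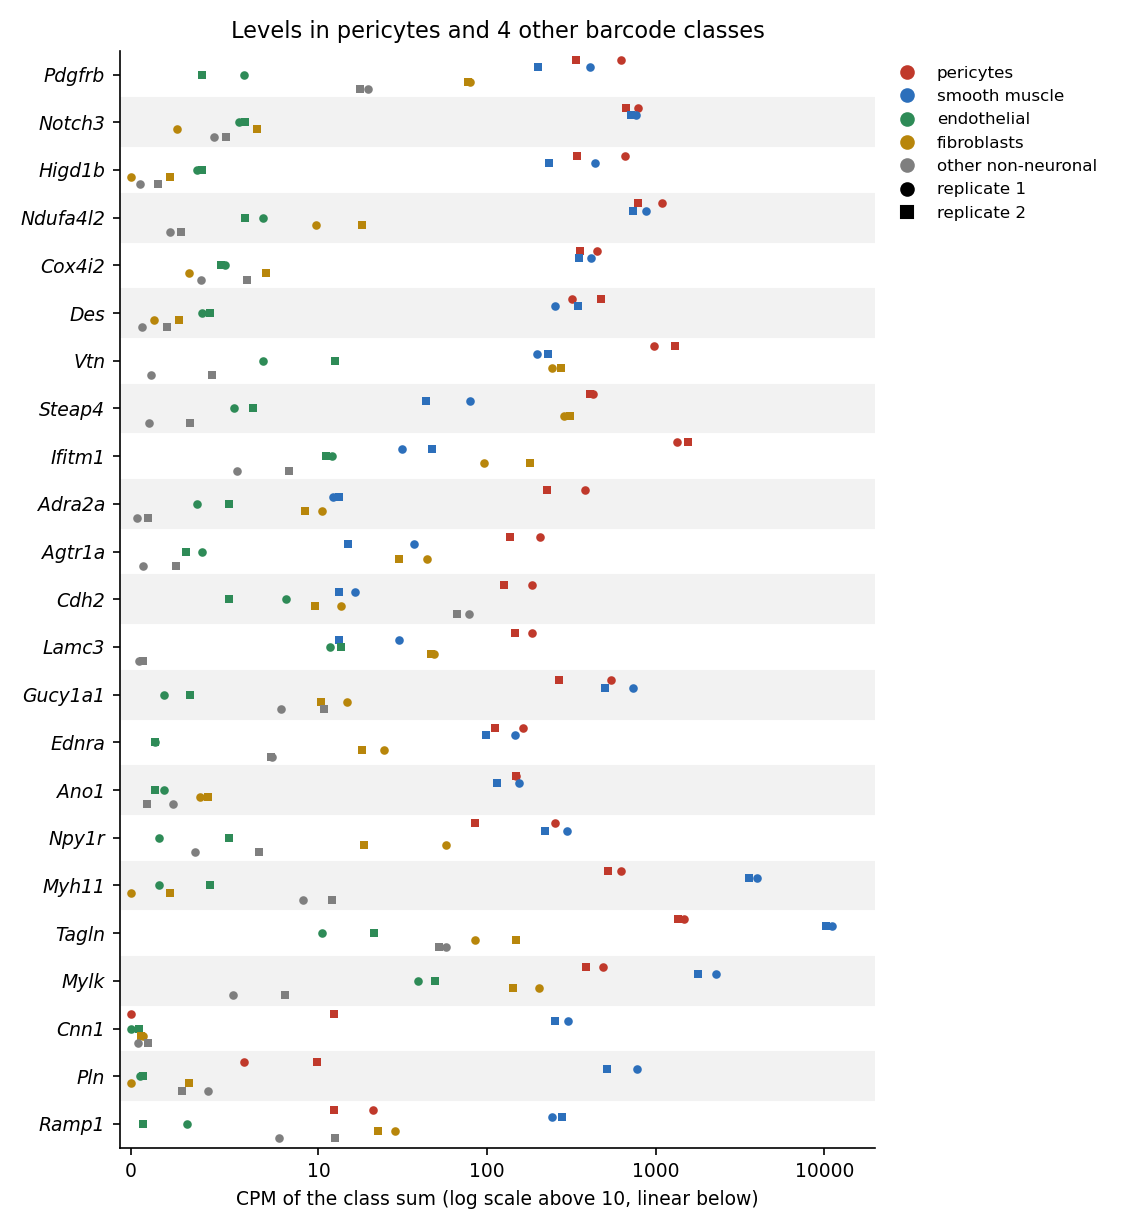
CPM of the class sum for 23 genes in 5 barcode classes, linear below 10 and on a log scale above; circles are replicate 1 and squares replicate 2, and pericytes (red) are the top points of each row. The genes were picked after their values were seen: the upper 6 lie close together in pericytes and smooth muscle, Vtn to Lamc3 lie further right in pericytes (Ifitm1 at 1341 and 1547 CPM, against 31.4 and 47.1 CPM in smooth muscle), and Myh11 to Ramp1 lie further right in smooth muscle.

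Of the named genes with more than 3 UMIs in smooth muscle, the one furthest above it was Ifitm1, an interferon-inducible transmembrane protein (chr7:140967221-140969825, plus strand). It had 1341 and 1547 CPM in pericytes, against 31.4 and 47.1 CPM in smooth muscle, a log2 difference of 5.23 ± 0.25 (adjusted p = 5.4e-06). Both pericyte sums lay above both smooth muscle sums, and the level stood at 12 and 11.1 CPM in endothelial barcodes, 95.4 and 180.1 in fibroblasts and 5.65 and 8.45 in other non-neuronal barcodes. With every barcode thinned to 2000 UMIs, to take depth out of the comparison, 75.8% and 79% of 66 and 81 pericytes had an Ifitm1 UMI, against 2.46% and 3.92% of 122 and 102 smooth muscle barcodes and 0.776% and 1.07% of other non-neuronal barcodes. Before thinning the shares were 77.9% and 86.9% of pericytes, against 5.69% and 6.86% of smooth muscle and 1.14% and 2.29% of other non-neuronal barcodes, whose median depths were 7141 and 6467 UMIs. Thinning left out 2 and 3 pericytes and 1 and 0 smooth muscle barcodes that were too shallow.

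Other interferon-regulated genes were higher as well. Of 27 genes of interferon response and MHC class I tested, 10 were higher in pericytes, 0 lower and 17 not called, with a median log2 difference of 1.23, beside -0.02 over all genes. Ifitm3 had 2521 and 2526 CPM in pericytes, against 582 and 839.6 CPM in smooth muscle (1.85 ± 0.18, adjusted p = 0.00028). Ifitm2 had 820.2 and 959 CPM in pericytes, against 396 and 418 CPM in smooth muscle (1.12 ± 0.15, adjusted p = 0.0017). The 3 Ifitm genes are close relatives and Ifitm2 also overlaps another annotated gene on its strand, so the division of reads between them is uncertain. Psmb8, a subunit of the immunoproteasome, had 81.7 and 82 CPM in pericytes, against 10.9 and 18.8 CPM in smooth muscle (2.54 ± 0.36, adjusted p = 0.0019). Iigp1, an interferon-inducible GTPase, had 309 and 842 CPM in pericytes, against 6.82 and 88.5 CPM in smooth muscle (3.78 ± 0.48, adjusted p = 0.0011), so that it differed between the libraries within each class as well. These 5 calls held with the pericytes of either library left out. B2m, the light chain of MHC class I, had 887 and 507 CPM in pericytes, against 213 and 252 CPM in smooth muscle (1.52 ± 0.24, adjusted p = 0.0036, and 0.054 and 0.027 with a library left out). Isg15, H2-K1, H2-T23 and H2-Q4 were called with both libraries and lost the call with at least one of them left out. Over all genes tested, 14% were lower in pericytes than in endothelial barcodes and 12.5% higher. Endothelial barcodes held still more of this list: against them, 21 of the 27 genes were lower in pericytes and 1 higher, with a median of -1.69, and 15 of the 21 were also called in both fits with a library left out.

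Most receptors for vasoactive signals were not called between pericytes and smooth muscle. Of 47 receptors tested, 4 were higher, 1 lower and 42 not called, with a median of 0.34. Over all genes tested, 1.66% were higher and 2.96% lower. Adra2a, the alpha-2A adrenergic receptor (chr19:54044151-54048982, plus strand), had 378 and 226 CPM in pericytes, against 12.3 and 13.2 CPM in smooth muscle (4.56 ± 0.43, adjusted p = 0.00021). It had a UMI in 47 of 68 and 38 of 84 pericytes, and after thinning in 48.5% and 33.3% of pericytes, against 1.64% and 1.96% of smooth muscle and 0.0554% and 0.268% of other non-neuronal barcodes. Its level in other non-neuronal barcodes, 0.301 and 0.913 CPM, was among the lowest of any gene named here, a difference of 8.95 ± 0.39 (adjusted p = 6.8e-08). Agtr1a, the angiotensin II type 1a receptor (chr13:30336441-30382867, plus strand), had 206 and 137 CPM in pericytes, against 36.8 and 15.1 CPM in smooth muscle (2.64 ± 0.54, adjusted p = 0.016, and 0.19 and 0.081 with a library left out). Ednrb, the endothelin B receptor, had 148 and 353 CPM in pericytes, against 17.7 and 94.1 CPM in smooth muscle (2.27 ± 0.46, adjusted p = 0.016), with adjusted p = 0.26 without the pericytes of replicate 2. Satellite glia hold much Ednrb, and other non-neuronal barcodes were at 981 and 979 CPM. P2ry14, a receptor for UDP-glucose, had 142 and 104 CPM in pericytes, against 39.6 and 39.5 CPM in smooth muscle (1.64 ± 0.33, adjusted p = 0.014, and 0.15 and 0.077 with a library left out).

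On the lower side stood Ramp1, the accessory subunit that turns the calcitonin receptor-like receptor into the receptor for CGRP. It had 21.2 and 12.4 CPM in pericytes, against 241 and 277 CPM in smooth muscle (-3.98 ± 0.47, adjusted p = 0.00076), and the call held with either library left out. The receptor chain itself, Calcrl, had 39.3 and 19.9 CPM in pericytes, against 39.6 and 24.5 CPM in smooth muscle and was not called. After thinning, 3.03% and 1.24% of pericytes had a Ramp1 UMI, against 32% and 43.1% of smooth muscle and 1.44% and 1.61% of other non-neuronal barcodes. The pericyte shares lie within counting error of that of other non-neuronal barcodes, so they are read as background. Endothelin A receptor RNA (Ednra) had 163 and 112 CPM in pericytes, against 147 and 97.9 CPM in smooth muscle. Npy1r, the neuropeptide Y1 receptor, had 251 and 84.4 CPM in pericytes, against 297 and 220.3 CPM in smooth muscle. Neither Ednra nor Npy1r was called, which does not show that their levels were equal.

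The channels that set membrane potential were described by the rule in part. Kcnj8 and Abcc9, neighbours on chromosome 6 with 16247 bases between them (chr6:142564837-142571614 and chr6:142587862-142702315, both minus strand), are members of the rule, so their class difference is no finding. Kcnj8 had 345 and 273 CPM in pericytes, against 23.2 and 26.4 CPM in smooth muscle. Abcc9 had 288 and 184 CPM in pericytes, against 39.6 and 20.7 CPM in smooth muscle. The share each took of its paralog pair was not used by the rule directly. Kcnj8 gave 99.1% and 99.1% of the UMIs of Kcnj8 and Kcnj11 in pericytes, against 65.4% and 63.6% in smooth muscle, which had 17 and 14 UMIs of Kcnj8 and 9 and 8 of Kcnj11. Abcc9 gave 96.9% and 96.1% of the UMIs of Abcc9 and Abcc8 in pericytes, against 51.8% and 37.9% in smooth muscle. Since the rule raises Kcnj8 and Abcc9 in pericytes, it moves these shares too.

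Of the other potassium channel genes, 0 of 19 tested were higher in pericytes and 5 were lower, with a median of -1.22. Kcnmb1, the beta subunit of the large-conductance calcium-activated channel of smooth muscle, had 1 UMI in each library's pericytes. Smooth muscle was higher by a ratio of 29.6 (95% counting interval 8 to 247). Kcnmb1 also belongs to the contractile apparatus list, whose difference the Acta2 limit builds in, so its value is a description. Kcna5, a voltage-gated channel, had 15.1 and 17.4 CPM in pericytes, against 105 and 132 CPM in smooth muscle (-2.92 ± 0.48, adjusted p = 0.0045, and 0.14 without replicate 2). Kcnab1 and Kcnk3 were also called with both libraries and lost the call without replicate 1 and without replicate 2 alike.

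Among calcium, chloride and cation channels and pumps, 0 of 30 genes were higher, 8 lower and 22 not called, with a median of -0.64. Atp2a2, the calcium pump of the sarcoplasmic reticulum, had 336 and 308 CPM in pericytes, against 865 and 672 CPM in smooth muscle (-1.25 ± 0.15, adjusted p = 0.00079) and kept its call with either library left out. Cacna1h, a T-type calcium channel, had 12.1 and 14.9 CPM in pericytes, against 99.6 and 79.1 CPM in smooth muscle (-2.73 ± 0.48, adjusted p = 0.0073, and 0.1 and 0.095 with a library left out). Its relative Cacna1g had 12.1 and 4.97 CPM in pericytes, against 64.1 and 67.8 CPM in smooth muscle (-3.01 ± 0.49, adjusted p = 0.0043, and 0.088 without replicate 2). Itpr1, an inositol trisphosphate receptor, had 63.6 and 59.6 CPM in pericytes, against 236 and 162 CPM in smooth muscle (-1.70 ± 0.26, adjusted p = 0.003, and 0.058 without replicate 2). Ano1, the calcium-activated chloride channel, had 148 and 149 CPM in pericytes, against 156 and 115 CPM in smooth muscle. Cacna1c, the L-type calcium channel, had 93.8 and 49.7 CPM in pericytes, against 81.8 and 48.9 CPM in smooth muscle. Neither Ano1 nor Cacna1c was called.

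The contractile apparatus was lower in pericytes, a difference that the Acta2 limit of the rule builds in, so that the counts and values here are a description and support nothing. Of 34 genes, 28 had an adjusted p under 0.05 in the lower direction, 1 in the higher and 5 in neither, and 20 of the 28 also did in both fits with a library left out, with a median of -2.18. Myh11, the smooth muscle myosin heavy chain, had 623 and 519 CPM in pericytes, against 4005 and 3551 CPM in smooth muscle. Tagln, an actin-binding protein also called SM22, had 1465 and 1346 CPM in pericytes, against 11041 and 10162 CPM in smooth muscle, Myl9 had 1144 and 1189.6 CPM in pericytes, against 5546 and 5742 CPM in smooth muscle. Mylk, the myosin light chain kinase, had 487 and 387 CPM in pericytes, against 2282 and 1779 CPM in smooth muscle. Pericytes were thus not without these RNAs: Myh11 stood at 1.5 and 4.19 CPM in endothelial barcodes and 0 and 2.06 CPM in fibroblasts. Genes outside the list were at or close to 0 too. Grip2 had 0 UMIs in pericytes and was at least 14.8-fold lower (3 UMIs over the class taken as the floor), and Rergl, of the list, had 0 UMIs and was at least 7.75-fold lower (adjusted p = 0.03, and 0.2 and 0.15 with a library left out). Fbxl22, an F-box protein of striated and smooth muscle, had 1 UMI, and smooth muscle was higher by a ratio of 162 (95% counting interval 28.9 to 6427). Pln, which restrains the sarcoplasmic calcium pump, had 6.05 and 9.93 CPM in pericytes, against 776 and 512 CPM in smooth muscle, and Cnn1, calponin, had 0 and 12.4 CPM in pericytes, against 300.1 and 252 CPM in smooth muscle. Myh9, the non-muscle myosin heavy chain, was the 1 gene on the higher side, with 288 and 363 CPM in pericytes, against 139 and 141 CPM in smooth muscle (log2 difference 1.22 ± 0.17).

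**Figure D3:**
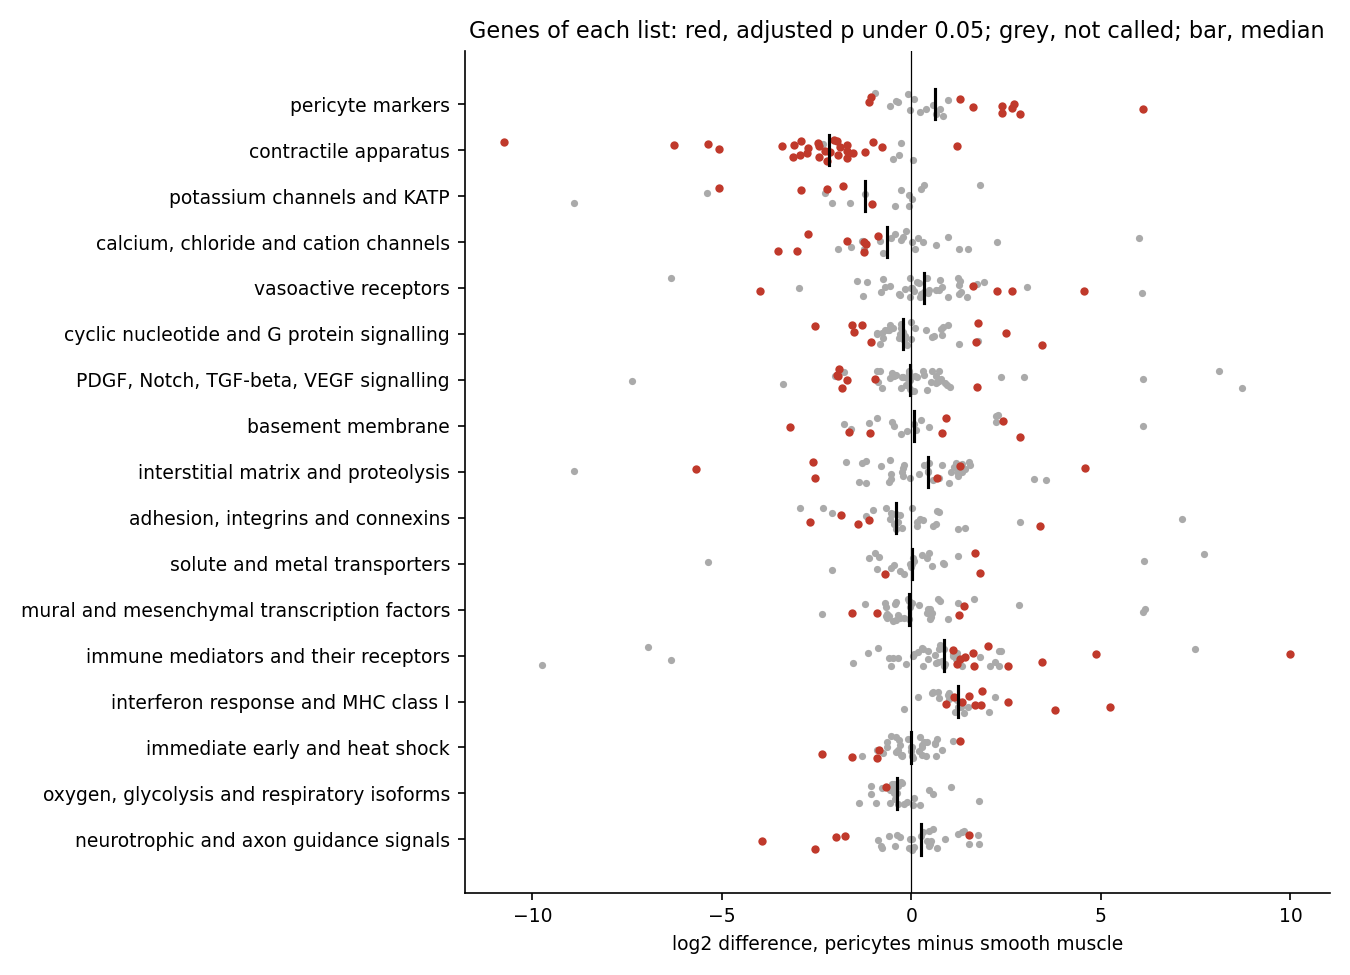
Each point is 1 tested gene of a list, placed by its log2 difference of pericytes minus smooth muscle; red points have an adjusted p under 0.05, grey points were not called, and the black bar is the list's median. Interferon genes lie mostly right of 0 with 10 called higher and 0 lower, contractile genes lie mostly left with 28 red points on that side, as the Acta2 limit of the rule builds in, and points beyond 6 in either direction mostly have 0 UMIs in one class, where the fitted value depends on the prior count.

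Markers that other studies use for pericytes were split. Of 24 tested, 8 were higher than in smooth muscle, 2 lower and 14 not called (median 0.61), and 3 of the 8, Vtn, Steap4 and Art3, were called with either library left out as well. The list was compiled for pericytes, so its direction is not independent of the class name. Vtn, vitronectin (chr11:78499091-78502324, plus strand), had 971 and 1304 CPM in pericytes, against 196 and 229.7 CPM in smooth muscle (2.40 ± 0.32, adjusted p = 0.0014). Steap4, a metalloreductase, had 424 and 409.8 CPM in pericytes, against 79.1 and 43.3 CPM in smooth muscle (2.71 ± 0.39, adjusted p = 0.0021). Art3, an ADP-ribosyltransferase family member, had 275 and 276 CPM in pericytes, against 60 and 43.3 CPM in smooth muscle (2.40 ± 0.21, adjusted p = 0.00013). Pla1a, a phosphatidylserine phospholipase, had 51.4 and 59.6 CPM in pericytes and 1 UMI in smooth muscle, a ratio of 81.1 (95% counting interval 13.8 to 3281), with adjusted p = 0.0039, and 0.062 without replicate 2. Cspg4, the NG2 proteoglycan, and Mcam were the 2 lower genes: Cspg4 had 133 and 149 CPM in pericytes, against 396 and 218 CPM in smooth muscle (-1.06 ± 0.24, adjusted p = 0.027, and 0.3 without replicate 1), and Mcam had 194 and 119 CPM in pericytes, against 344 and 322 CPM in smooth muscle (-1.11 ± 0.25, adjusted p = 0.029, and 0.28 without replicate 2).

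Several widely used markers were not called between the mural classes, which does not show equal levels. Pdgfrb and Higd1b were higher in pericytes in both libraries. The smooth muscle class was cut on Acta2, and 61 of its 123 and 41 of its 102 barcodes also met the marking limit of the pericytes. Notch3 differed by -0.03 ± 0.19 on the log2 scale (adjusted p = 0.98), and Pdgfrb by 0.66 ± 0.23 (adjusted p = 0.17). Higd1b, a mitochondrial HIG1-domain protein, had 659.8 and 340.3 CPM in pericytes, against 436 and 232 CPM in smooth muscle. Ndufa4l2, an oxygen-regulated isoform of a respiratory chain subunit, had 1086 and 787 CPM in pericytes, against 873 and 730.4 CPM in smooth muscle. Cox4i2, another such isoform, had 451 and 355 CPM in pericytes, against 416 and 352 CPM in smooth muscle. Des, the muscle intermediate filament, had 321 and 472 CPM in pericytes, against 254 and 346 CPM in smooth muscle. Of the isoform pairs, Ndufa4l2 gave 72.2% and 55.7% of the UMIs of Ndufa4l2 and Ndufa4 in pericytes, against 54.8% and 47.6% in smooth muscle, and Higd1b gave 84.2% and 70.3% of those of Higd1b and Higd1a, against 74.9% and 57.5%. Both shares were lower in replicate 2 in either class. Across the 29 genes of oxygen response, glycolysis and respiratory isoforms tested, 0 were higher and 1, Cox7a2, was lower, a call lost in at least one of the fits with a library left out.

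Second messenger genes gave 4 higher, 5 lower and 30 uncalled of 39, with a median of -0.23, and 2 of the 4 and 1 of the 5 were called with either library left out too. Pde8b, a cyclic AMP phosphodiesterase, had 124 and 69.5 CPM in pericytes, against 6.82 and 11.3 CPM in smooth muscle (3.45 ± 0.44, adjusted p = 0.0011). Arhgap42, a GTPase-activating protein of vascular cells, had 148 and 144 CPM in pericytes, against 35.5 and 13.2 CPM in smooth muscle (2.50 ± 0.35, adjusted p = 0.0017). Adcy5, an adenylyl cyclase, had 12.1 and 32.3 CPM in pericytes, against 134 and 137 CPM in smooth muscle (-2.55 ± 0.34, adjusted p = 0.0014). These 3 calls held with either library left out. Gucy1a1 and Gucy1b1, the subunits of the soluble guanylyl cyclase that senses nitric oxide, were not called. Gucy1a1 had 542 and 268 CPM in pericytes, against 729.8 and 499 CPM in smooth muscle. Gucy1b1 had 505 and 273 CPM in pericytes, against 447 and 329 CPM in smooth muscle. Prkg1, the cyclic GMP-dependent kinase, had 112 and 82 CPM in pericytes, against 235 and 166 CPM in smooth muscle (-1.07 ± 0.23, adjusted p = 0.023, and 0.082 and 0.23 with a library left out).

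In the list of PDGF, Notch, TGF-beta, angiopoietin and VEGF signalling, 1 of 51 genes was higher, 6 were lower and 44 were not called (median -0.04). Nrp1, a co-receptor for VEGF and semaphorins, had 363 and 253 CPM in pericytes, against 116 and 67.8 CPM in smooth muscle (1.73 ± 0.25, adjusted p = 0.0021). Id1, a target of BMP signalling, had 48.4 and 59.6 CPM in pericytes, against 173 and 245 CPM in smooth muscle (-1.94 ± 0.24, adjusted p = 0.0011), and the ligand Tgfb3 had 30.3 and 29.8 CPM in pericytes, against 117 and 96 CPM in smooth muscle (-1.83 ± 0.27, adjusted p = 0.0024). These 3 calls held with either library left out. The Notch ligand Jag1 had 127 and 82 CPM in pericytes, against 226 and 173 CPM in smooth muscle (-0.95 ± 0.23, adjusted p = 0.043, and 0.12 and 0.32 with a library left out), and Tgfb2, Hey2 and Smad7 also lost the call in both of those fits.

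Basement membrane genes went both ways. Of 23 tested, 4 were higher, 3 lower and 16 not called (median 0.07). The laminin chains Lamc3 and Lama2 were higher: Lamc3 had 185 and 147 CPM in pericytes, against 30 and 13.2 CPM in smooth muscle (2.87 ± 0.31, adjusted p = 0.00045). Lama2 had 109 and 82 CPM in pericytes, against 20.5 and 15.1 CPM in smooth muscle (2.43 ± 0.29, adjusted p = 0.00089). Lama5, the laminin alpha-5 chain, was lower, with 33.3 and 12.4 CPM in pericytes, against 210.1 and 198 CPM in smooth muscle (-3.21 ± 0.38, adjusted p = 0.00078). These 3 calls held with either library left out. Nid1 and Sparc were higher and Hspg2 and Lamb2 lower with both libraries, and each lost the call when at least one was left out. Col4a1, the main collagen of basement membranes, had 944 and 633 CPM in pericytes, against 833 and 501 CPM in smooth muscle and was not called, while it was above endothelial barcodes at 563 and 373 CPM (0.76 ± 0.15, adjusted p = 0.0029).

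Of 44 interstitial matrix and proteolysis genes, 3 were higher, 3 lower and 38 not called (median 0.44). Eln, elastin, had 57.5 and 64.6 CPM in pericytes, against 387 and 352 CPM in smooth muscle (-2.60 ± 0.23, adjusted p = 0.00016). Sparcl1, a matricellular protein, had 551 and 402 CPM in pericytes, against 3039 and 2517 CPM in smooth muscle (-2.55 ± 0.16, adjusted p = 1.5e-05). Timp4, a metalloproteinase inhibitor, had 2 UMIs in pericytes, and smooth muscle was higher by a ratio of 43.5 (95% counting interval 11.9 to 362). Those 3 lower calls held with either library left out, and none of the 3 higher ones did (Fbln1, Postn and Serpine2). Set against fibroblasts, 27 of the 44 were lower in pericytes and 6 higher, of which 17 and 3 were called with either library left out too. Over all genes tested, 7.91% were lower in pericytes than in fibroblasts and 6.57% higher. Col1a1, the fibrillar collagen, had 182 and 129 CPM in pericytes, against 4934 and 2771 CPM in fibroblasts, with 34 of the 60 pericyte UMIs of replicate 1 in a single barcode.

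Most genes of cell adhesion and transport were not called. Cdh2, N-cadherin, through which mural cells contact endothelium, had 185 and 127 CPM in pericytes, against 16.4 and 13.2 CPM in smooth muscle (3.39 ± 0.26, adjusted p = 6.3e-05), and the protocadherin Pcdh19 had 169 and 156 CPM in pericytes, against 15 and 9.41 CPM in smooth muscle (3.68 ± 0.38, adjusted p = 0.00033). After thinning, 37.9% and 22.2% of pericytes had a Cdh2 UMI. The share was 1.64% and 1.96% in smooth muscle and 13.2% and 11.7% in other non-neuronal barcodes. Bcam, a laminin receptor, had 272 and 189 CPM in pericytes, against 602 and 604 CPM in smooth muscle (-1.40 ± 0.19, adjusted p = 0.0017). In the adhesion list, 1 of 35 genes was higher, 4 lower and 30 not called (median -0.39), and 1 of the 4 lower genes, Bcam, was also called in both fits with a library left out. Slc12a2, the sodium-potassium-chloride cotransporter, had 327 and 378 CPM in pericytes, against 92.8 and 107 CPM in smooth muscle (1.82 ± 0.18, adjusted p = 0.00023). Pltp, the phospholipid transfer protein, had 257 and 184 CPM in pericytes, against 16.4 and 18.8 CPM in smooth muscle (3.65 ± 0.29, adjusted p = 6.3e-05). All 5 calls held with either library left out. Slc7a2, an arginine transporter, had 384 and 179 CPM in pericytes, against 81.8 and 90.4 CPM in smooth muscle (1.69 ± 0.30, adjusted p = 0.0076, and 0.051 without replicate 1). In the transporter list as a whole, 2 of 27 genes were higher, 1 lower and 24 not called (median 0.03), and the lower call was lost in at least one of those fits. Atp13a5, a P5-type transport ATPase used as a marker of brain pericytes, had 0 UMIs in every class.

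Transcription factors gave 2 higher and 2 lower genes of 39, with 35 not called (median -0.07). Nr2f1, a nuclear receptor, had 493 and 301 CPM in pericytes, against 164 and 136 CPM in smooth muscle (1.39 ± 0.25, adjusted p = 0.0077, and 0.12 without replicate 1). Prrx1, a mesenchymal homeobox factor, had 275 and 253 CPM in pericytes, against 112 and 107 CPM in smooth muscle (1.26 ± 0.26, adjusted p = 0.017, and 0.15 and 0.1 with a library left out). Klf2, a flow-induced factor best known in endothelium, had 124 and 494 CPM in pericytes, against 423 and 1352 CPM in smooth muscle (-1.57 ± 0.28, adjusted p = 0.0085, and 0.12 and 0.076 with a library left out). Foxs1, a forkhead factor of mural cells, was shared by both mural classes with 112 and 62.1 CPM in pericytes, against 96.8 and 113 CPM in smooth muscle and was at 0.251 and 0.629 CPM in endothelial barcodes (7.47 ± 0.58, adjusted p = 4.3e-06). Zic1, a zinc finger factor, had 133 and 166 CPM in pericytes, against 99.6 and 111 CPM in smooth muscle, and 206 and 154 CPM in fibroblasts. Tbx18, a T-box factor of mural cells in mouse, was found at 21.2 and 14.9 CPM, from 7 and 6 UMIs.

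Immune mediators and their receptors gave 11 higher and 0 lower genes of 52 (median 0.87). Ifngr2 and Ifnar2 were among those called with either library left out too. Against fibroblasts, 7 of the 52 were higher in pericytes and 11 lower, with Ccl11 and Ptges among the lower. Over all genes tested, 6.57% were higher than in fibroblasts and 7.91% lower. After thinning, 59.7% and 65.7% of fibroblasts had a Ccl11 UMI, against 9.09% and 29.6% of pericytes. Ifngr2, a chain of the interferon gamma receptor, had 227 and 181 CPM in pericytes, against 62.7 and 33.9 CPM in smooth muscle (2.03 ± 0.26, adjusted p = 0.0011). Ifnar2, a chain of the type I interferon receptor, had 133 and 99.3 CPM in pericytes, against 40.9 and 32 CPM in smooth muscle (1.65 ± 0.22, adjusted p = 0.0016). Il34, a ligand of the CSF1 receptor, had 203 and 236 CPM in pericytes, against 83.2 and 107 CPM in smooth muscle (1.21 ± 0.22, adjusted p = 0.0096, and 0.074 and 0.093 with a library left out). Ptges, prostaglandin E synthase, had 21.2 and 19.9 CPM in pericytes and 0 UMIs in smooth muscle, at least 9.89-fold higher (adjusted p = 0.0066, and 0.051 and 0.058 with a library left out). The chemokines Ccl2 and Ccl11 were called but varied between libraries by more than most genes: Ccl2 had 63.6 and 1217 CPM in pericytes, against 6.82 and 99.8 CPM in smooth muscle (3.44 ± 0.43, adjusted p = 0.0011, and 0.077 without replicate 2), and Ccl11 had 78.7 and 954 CPM in pericytes, against 6.82 and 22.6 CPM in smooth muscle (4.86 ± 0.66, adjusted p = 0.0017, and 0.076 without replicate 2).

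Of neurotrophic and axon guidance genes, 1 of 33 was higher, 4 were lower and 28 were not called (median 0.25). Ntn4, a netrin, had 48.4 and 24.8 CPM in pericytes, against 312 and 120.5 CPM in smooth muscle (-2.54 ± 0.32, adjusted p = 0.0011), a call that held with either library left out. Ntf3, neurotrophin-3, had 3 UMIs in pericytes, and smooth muscle was higher by a ratio of 13.1 (95% counting interval 4.33 to 65.1), with adjusted p = 0.0088, and 0.1 and 0.13 with a library left out. The 1 higher gene was Mdk, midkine, with 84.7 and 47.2 CPM in pericytes, against 23.2 and 22.6 CPM in smooth muscle (1.51 ± 0.32, adjusted p = 0.021, and 0.22 and 0.051 with a library left out). Mdk was called lower in pericytes than in fibroblasts and than in other non-neuronal barcodes. Immediate early and heat shock genes, which dissociation is known to induce, gave 1 higher and 4 lower genes of 39, with a median of -0.00, and none of these calls held in both of the fits with a library left out.

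Further genes stood far from smooth muscle, some of them on few barcodes. Sfrp2, a secreted Wnt modulator, had 278 and 84.4 CPM in pericytes, against 10.9 and 13.2 CPM in smooth muscle (3.88 ± 0.59, adjusted p = 0.0032, and 0.13 without replicate 1), but its pericyte UMIs came from 3 and 4 barcodes. Colec12, a scavenger receptor, had 78.7 and 74.5 CPM in pericytes, against 5.46 and 5.65 CPM in smooth muscle (3.76 ± 0.64, adjusted p = 0.0058, and 0.064 and 0.059 with a library left out). Susd5 had 3 UMIs in pericytes, and smooth muscle was higher by a ratio of 35.5 (95% counting interval 12 to 174). Xirp1, an actin-binding repeat protein, had 9.08 and 2.48 CPM in pericytes, against 117 and 99.8 CPM in smooth muscle (-4.30 ± 0.58, adjusted p = 0.0021, and 0.055 without replicate 2). The neutrophil genes S100a8 and S100a9 were among the 10 lowest relative to smooth muscle, but 98.7% and 96.8% of the smooth muscle UMIs of S100a8, and 99.2% and 96.8% of those of S100a9, came from 1 barcode in each library.

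The members were not uniform along Acta2, the gene that bounds them. Taking all barcodes with the marking genes at pericyte level and sorting them by Acta2 per 10000 into 0, above 0 to under 20, 20 to under 50 (the last range inside the rule), 50 to under 100, and 100 or more (both ranges outside it), the 5 ranges held 44, 6, 18, 39 and 22 barcodes in replicate 1 and 50, 19, 15, 29 and 12 in replicate 2. Levels per range are UMIs per 1000000 of the range's own sum with no TMM scaling (plain CPM), and are a description of cells sorted on their own counts, with no test. Ifitm1 had 2087 and 2225 plain CPM at 0 Acta2 and 2271 and 1682 in the second range, but 147 and 195 in the third, inside the rule, then 80.6 and 112 and 6.82 and 60.6 in the ranges outside it. Adra2a had 526 and 316, then 914 and 204, then 56.6 and 112 in the third range, and 8.06 and 24.9 and 47.8 and 45.4 beyond the limit. For both genes the low levels were thus already seen inside the rule, in the range of 20 to under 50.

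Kcnj8, a gene of the rule, had a UMI in 34 of 44 and 31 of 50 barcodes at 0 Acta2, in 3 of 6 and 11 of 19 of the second range, but in 1 of 18 and 4 of 15 of the third. Tagln ran the other way, with 195 and 185 plain CPM at 0 Acta2, 2124 and 1764 and 4289 and 4632 in the next ranges, and 7454 and 7017 and 9513 and 11012 beyond the limit. Nrgn, neurogranin, a calmodulin-binding protein, had 23.7 and 35.1 plain CPM at 0 Acta2 and 668 and 656 in the third range. Pln stayed low throughout the rule, with 0 and 0, 0 and 10.2 and 22.6 and 41.9 in the first 3 ranges, against 475 and 312 in the range just outside. Notch3 showed no such order, with 798 and 531, 737 and 877, 1109 and 1046, 955 and 755 and 778 and 924 plain CPM in the 5 ranges. The 18 and 15 members in the third range thus carried less Kcnj8, Ifitm1 and Adra2a RNA than the members at 0 Acta2. Summed, the 26 pericyte markers outside the rule stood at 9265 and 7918 plain CPM at 0 Acta2. They stood at 9233 and 7881 in the second range and 8680 and 6892 in the third. That sum joins markers that moved in opposite directions from 0 Acta2 to the third range. Vtn fell from 1342 and 1809 to 543 and 502, and Steap4 from 597 and 511 to 238 and 223. Art3 fell from 373 and 356 to 124 and 55.8. Notch3 rose, and so did Ndufa4l2, from 1118 and 727 to 1516 and 1214. With the limit set at under 20 per 10000, 703 genes differed from smooth muscle instead of 565.

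**Figure D4:**
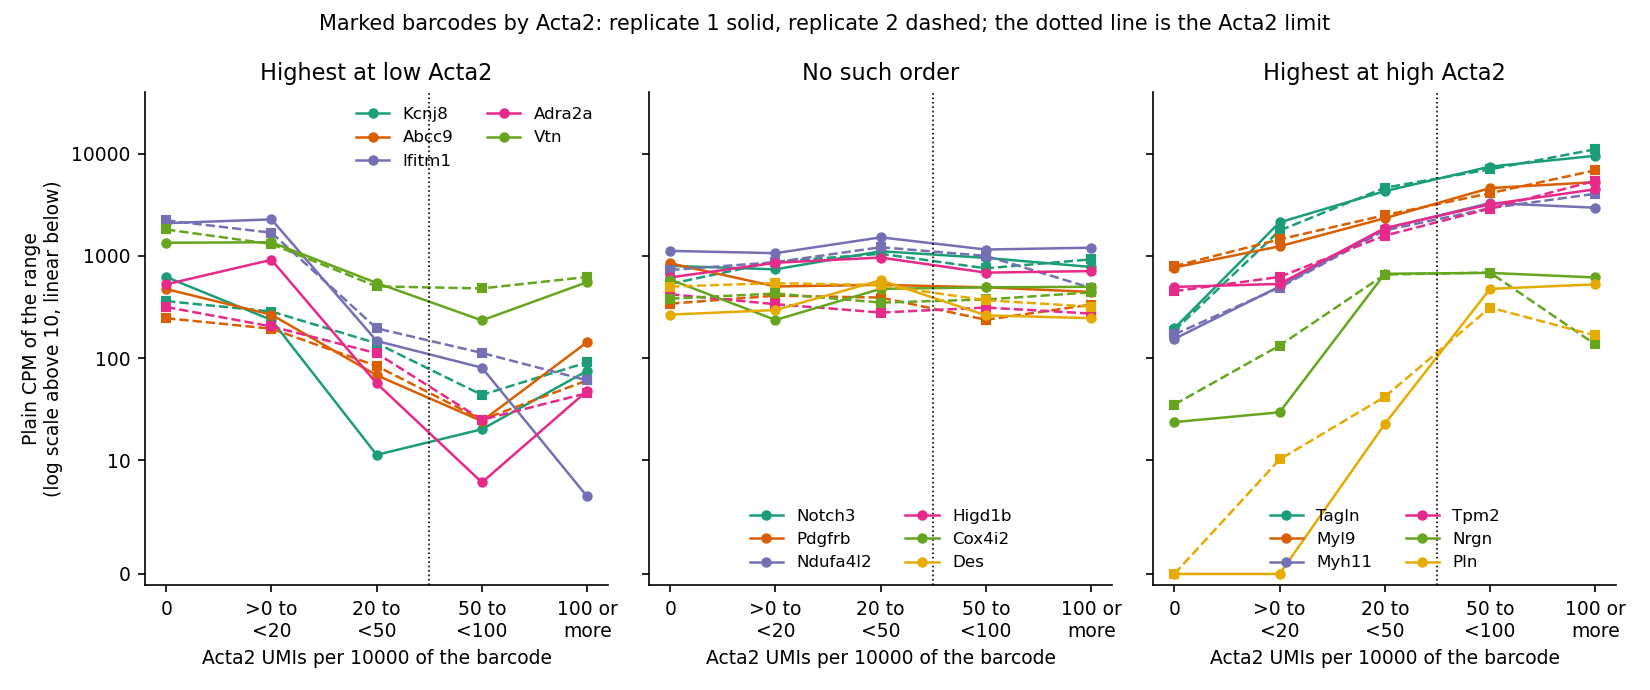
Plain CPM (linear below 10, log scale above) in barcodes that pass the pericyte marking genes, sorted by their own Acta2 per 10000 on the x axis; solid lines are replicate 1, dashed lines replicate 2, and the dotted line is the Acta2 limit of 50 below which a barcode counts as a pericyte. The panels were filled after the values were seen: genes at left are highest in the 2 lowest ranges (Ifitm1 at 2087 and 2225 plain CPM at 0 Acta2), those in the middle show no such order, and those at right are highest in the upper ranges.

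Values just inside and just outside the limits are given here once, with no test. At the Acta2 limit, 5 and 7 barcodes lay at 40 to under 50 per 10000 and 6 and 8 at 50 to under 60, with Tagln at 5508 and 5406 plain CPM just inside and 5171 and 6892 just outside. Few barcodes lay near the marking limit, 3 and 1 at 20 to under 30 per 10000 and 1 and 5 at 10 to under 20. Many lay near the neuronal limit, 21 and 36 at 20 to under 25 per 10000 and 22 and 47 at 25 to under 30, with Kcnj8 at 446 and 380 plain CPM inside and 453 and 350 outside. Without the neuronal limit 200 and 301 barcodes would have met the rest of the rule, so that it kept 34% and 27.9% of them, against 80.9% and 68% of smooth muscle and 81.7% and 68.5% of endothelial barcodes. The number of pericytes given here therefore rests on that limit more than the other vascular classes do: with under 50 per 10000 it would be 158 and 263, or 2.68% and 3.69% of non-neuronal barcodes.

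A set of genes picked after their values were seen, many of them inflammatory, differed between the libraries within pericytes, with 1 library on each side and so no test. Ratios are of plain CPM of the class, replicate 2 over replicate 1. Il6, interleukin 6, was at 599 CPM in replicate 2 against 21.2 CPM in replicate 1, a ratio of 27.2, and the ratio was 4.81 in smooth muscle, 6.55 in endothelial barcodes, 10.8 in fibroblasts and 9.21 in other non-neuronal barcodes. Ccl2 had a ratio of 18.4 in pericytes, Ccl11 of 11.7, the interferon-regulated factor Irf1 of 8.23 and the chemokine Cxcl10 of 7.79. Hes1, a Notch target, had a ratio of 0.226 in pericytes, Npy1r of 0.323 and Pdgfrb of 0.521. Fos and Jun had ratios of 0.706 and 0.598 in pericytes and mostly ran the other way elsewhere. Fos had 1.415 in smooth muscle, 1.381 in endothelial barcodes, 1.617 in fibroblasts and 2.845 in other non-neuronal barcodes. Jun had 1.177, 0.641, 1.331 and 2.556 in the same order. The direction at Il6, Ccl2, Ccl11, Irf1, Cxcl10 and Hes1 was the same in all 5 classes. Since both libraries carry the same label, the difference between them belongs to no comparison of the study.

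**Figure D5:**
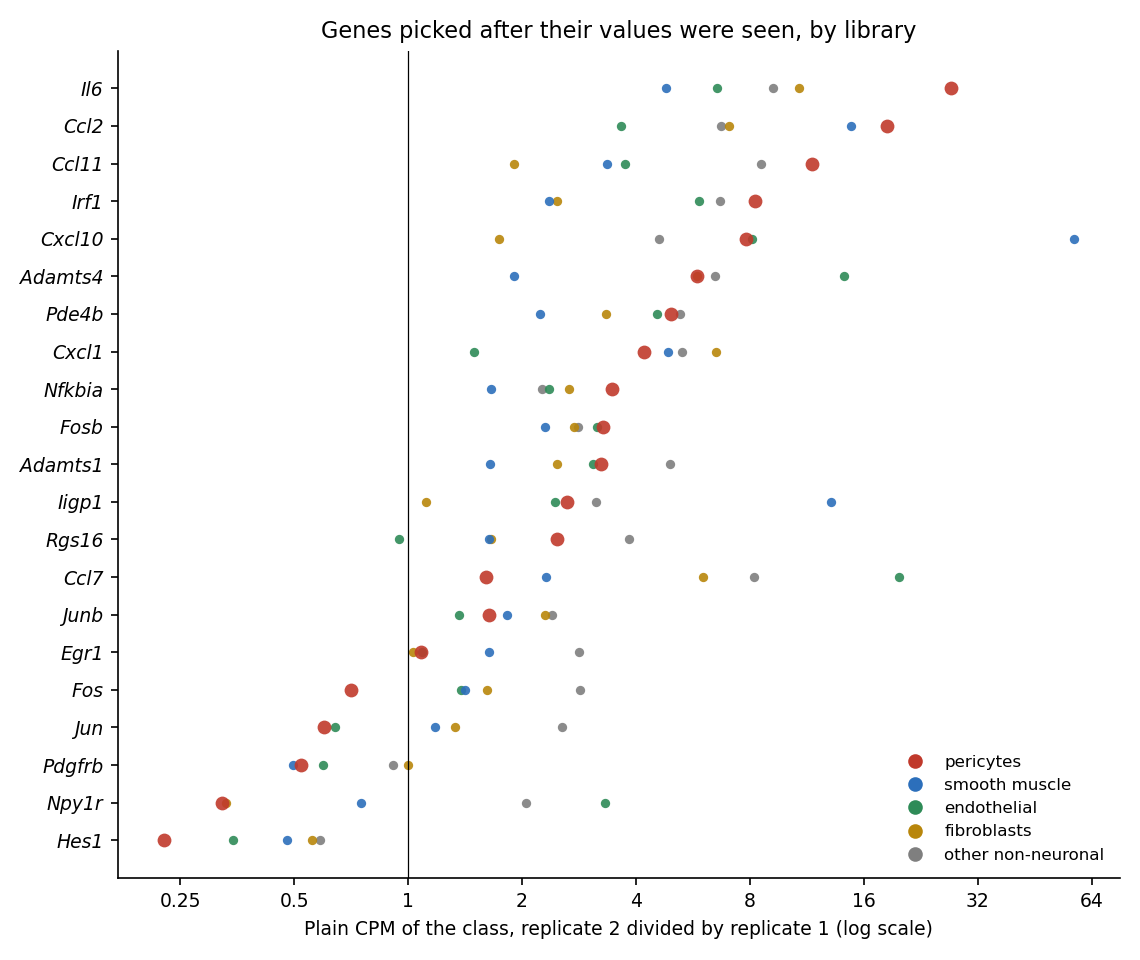
Plain CPM of replicate 2 divided by replicate 1 (log scale) for 21 genes picked after their values were seen, in pericytes (large red points) and 4 other classes. Il6, Ccl2 and Ccl11 have their largest ratio in pericytes (27.2 for Il6), while Cxcl10, Adamts4 and Ccl7 have a larger one in another class.

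Pericytes were also set against the endothelial, fibroblast and other non-neuronal classes, which were cut to hold no barcode at the marking limit. Higher mural markers in pericytes are therefore largely built in here and are a description. Against endothelial barcodes, 1531 genes were higher (12.5%) and 1721 lower (14%), of which 648 and 820 were called with either library left out too. The balance turned with DESeq2, to 1730 higher and 1432 lower, and was nearly even with median-ratio size factors in edgeR, at 1624 and 1621. All 24 pericyte markers tested were higher, with Notch3 at a log2 difference of 6.92 ± 0.25 and Pdgfrb at 6.59 ± 0.30. Gucy1a1 had 542 and 268 CPM in pericytes, against 1.76 and 3.14 CPM in endothelial barcodes (7.27 ± 0.41, adjusted p = 4.3e-07). The 10 named genes furthest on the lower side had 0 UMIs in pericytes, among them Tek, the angiopoietin receptor, at 179 and 158 CPM in endothelial barcodes (at least 36-fold lower), the Wnt-pathway factor Lef1 (at least 41.7-fold) and Clic5 (at least 56.3-fold). Mfsd2a, a lipid transporter of the blood-brain barrier, had 0 and 2.48 CPM in pericytes, against 767 and 595 CPM in endothelial barcodes, with 1 UMI in pericytes.

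Against fibroblasts, 805 genes were higher (6.57%) and 969 lower (7.91%), of which 307 and 371 were called with either library left out too. Des had 321 and 472 CPM in pericytes, against 1.23 and 2.58 CPM in fibroblasts (7.68 ± 0.35, adjusted p = 6.5e-07). Notch3 had 781 and 663 CPM in pericytes, against 2.46 and 6.71 CPM in fibroblasts (7.24 ± 0.28, adjusted p = 5.1e-07). Ifitm1 was above fibroblasts too, with 1341 and 1547 CPM in pericytes, against 95.4 and 180.1 CPM in fibroblasts (3.43 ± 0.21, adjusted p = 2.7e-06), and so was Vtn, with 971 and 1304 CPM in pericytes, against 243 and 275 CPM in fibroblasts (2.11 ± 0.30, adjusted p = 0.00069). The named genes furthest on the lower side again had 0 UMIs in pericytes, such as Myoc, myocilin (at least 56.8-fold lower), Vcan, the proteoglycan versican (at least 24.8-fold), and Pi16, a marker of adventitial fibroblasts (at least 20.5-fold).

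Against the other non-neuronal barcodes, 1353 genes were higher (11%) and 1560 lower (12.7%), of which 580 and 655 were called with either library left out too, and with DESeq2 the balance turned here as well, to 1504 higher and 1240 lower. Vtn had 971 and 1304 CPM in pericytes, against 1.05 and 4.34 CPM in other non-neuronal barcodes (8.82 ± 0.40, adjusted p = 9.3e-08). Higd1b had 659.8 and 340.3 CPM in pericytes, against 0.49 and 1.46 CPM in other non-neuronal barcodes (8.96 ± 0.50, adjusted p = 3.7e-07). Of the pericyte markers, 21 of 24 were higher and 1 lower, and of the mural and mesenchymal transcription factors 25 of 39 were higher and 0 lower (medians 6.60 and 2.52). Immediate early and heat shock genes were higher at 24 of 39 and lower at 1. With either library left out, 15 of the 25 transcription factors and 10 of the 24 immediate early and heat shock genes were still called. Each of these calls again depends on classes cut by genes of the same barcodes, and this last class is a mixture whose sum follows its most frequent cells.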

How the data were processed

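The 2 droplet libraries (10x Genomics 3′ chemistry) were analysed. The deposited matrices hold whole-number UMI counts per gene and barcode, made by the authors with Cell Ranger 5.0.1 and CASAVA 1.8 against mm10, per the submitters' processing notes, and the gene and barcode names are other, non-numeric columns of the deposited files. Doublet removal and ambient RNA correction are not described in the labels. Barcodes were sorted into 5 classes by the limits stated in the text, and raw counts were summed per class and library, since cells are not replicates. The 10 sums were fitted in 1 edgeR 4.0.16 quasi-likelihood model (TMM, filterByExpr) with class and library as terms, 12275 genes and 4 residual degrees of freedom. The 25 genes of the rule stayed in the fit and got no call. The library number pairs the classes, because all classes of a number come from the same library. The replicates were 2 libraries whose class totals of tested genes in pericytes were 289909 and 367509 UMIs.

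Log2 differences are pericytes minus the other class with a standard error from the F statistic, and p-values were adjusted over all genes of the fit. Against a class at 0 UMIs a floor of 3 UMIs over the class was used, and ratios with 1 to 3 UMIs carry exact counting intervals of 95%. Intervals and floors cover counting error only. The fit was tested on simulated counts. Alternatives were DESeq2 1.42.0, other scaling, filters, limits and Scrublet-based doublet removal (scanpy 1.11.5), tried 1 at a time, with the Fabp7 and endothelial limits changed together. Positions are from GENCODE vM21 (GRCm38), where 31107 of 31253 gene identifiers matched, and promoter windows from RefSeq.

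The members, the 17 gene lists and the tests were chosen with earlier results of these data known. Genes were named by rule: the 10 largest differences per direction among called genes with the same sign in both libraries and at least 50 CPM on the higher side, up to 6 members per list, and the paralog pairs. Genes named beyond that rule, and the genes of the figures, were chosen after their values were seen. A few genes that the rule names are not reported here. Lists are described by counts and medians and were not tested as sets.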

Additional observations from a re-analysis of the deposited data

How the results depend on the processing

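Against smooth muscle, 565 genes were called. Without the library term as a replicate block the count was 340, with a fold of 1.5 required 306, with no filter on low counts 1015, and with neuronal genes under 50 per 10000, a limit added after seeing the data, 936. Leaving out the pericytes of 1 library, also added, gave 211 to 255. For the 3252 genes called against endothelial barcodes these were 2149 with a fold of 1.5 and 1965 to 2162 with a library left out; for the 1774 against fibroblasts, 1098 and 961 to 1009; and for the 2913 against other non-neuronal barcodes, 1861 and 1698 to 1786. No replicate block gave 2541, 1299 and 2220 calls in those comparisons. In the fits with a library left out, only its pericyte sum was dropped, and the lone pericyte sum is assumed to vary like the other classes. The share of pericytes left its interval in replicate 1 with Acta2 under 20 (1.13%) and neuronal genes under 50 (2.68%), and in replicate 2 with Fabp7 under 10 and no Cldn5 or Flt1 (1.26%) and neuronal genes under 50 (3.69%). Whole-library leave-outs, with 1 library in total, give values and no test. No called gene reported with a log2 difference reversed its sign under any alternative. Notch3, not called against smooth muscle, lay above it in replicate 1 and below it in replicate 2. The median difference of all genes moved by 0.0087 to 0.0444 under the other scaling, with 0 sign changes among called genes. Depth limits genes near 3 UMIs per class.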
